A study of Homo sapiens with 5 samples.

Results

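The 19 positions described here lie between nucleotides 3627 and 3944 of human 28S rRNA, the large RNA of the large ribosomal subunit. They are all the 28S positions numbered above 3000 and below 3951 in a deposited table of ribose methylation levels, 19 of the 110 positions it lists and 19 of its 67 positions in 28S. The rule used the position number and no measured level. The levels came from RiboMethSeq of total RNA from PaTu cells. Established human lines of this name derive from pancreatic cancer. There were 5 libraries: ADAR1 #1 and ADAR1 #2, ADAR2 #1, Mock, and SCR. Both ADAR enzymes turn adenosine into inosine in double-stranded RNA. The labels give the same cell line for every library and state neither how the ADAR genes were manipulated nor whether #1 and #2 are repeat cultures or different reagents. They also do not say what the Mock and SCR cells received. Mock and SCR, the only libraries not named for an ADAR gene, were pooled as the set to compare with. No label says whether each library had its own culture. P-values therefore reflect the spread among these 5 samples alone, and that spread may be technical. No read counts accompany the levels, and the depth is unknown. The table holds no transcript levels, so markers of the cell line, the levels of ADAR1 and ADAR2 and those of the guide RNAs were not analysed here.

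Ribose 2′-O-methylation adds a methyl group to the sugar of a nucleotide. In rRNA it is placed mostly by fibrillarin within box C/D small nucleolar ribonucleoproteins, in which a short element of the small nucleolar RNA (snoRNA) pairs with the rRNA. The element lies just before a box called D or D′, and the rRNA nucleotide paired with the fifth base before that box is the one methylated. RiboMethSeq breaks RNA in alkali and scores how rarely fragments end at a position compared with its surroundings, because a methylated ribose resists cleavage. The stretch of 28S considered here holds helices at the face that meets the small subunit. Among them is H69, the hairpin that touches the decoding region and carries position 3760.

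Several of these positions have a guide snoRNA known from earlier work. SNORD88 is known to guide 3701, SNORD36 guides 3724, SNORD87 guides 3744, SNORD15 guides 3785, SNORD79 guides 3830, SNORD74 guides 3841, SNORD52 guides 3925 and SNORD111 guides 3944. The deposited table names neither guides nor nucleotides, so these pairs are background. Guides of 3724 and 3785 are shown as examples, because these positions had the largest ranges over the 5 libraries after 3867 (0.120 and 0.139). Sequences are GENCODE 29 transcripts, written as DNA from 5′ to 3′, with the 11 bases before the D or D′ box in capitals.
SNORD36B: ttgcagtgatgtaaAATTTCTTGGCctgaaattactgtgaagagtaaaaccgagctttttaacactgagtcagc
SNORD36C: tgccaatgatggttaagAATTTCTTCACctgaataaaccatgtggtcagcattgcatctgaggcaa
SNORD15A: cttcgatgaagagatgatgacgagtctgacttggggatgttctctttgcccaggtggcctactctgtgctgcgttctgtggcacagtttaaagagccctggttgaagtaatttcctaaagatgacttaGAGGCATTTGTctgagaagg
On GRCh38, all on the plus strand, SNORD36B lies at chr9:133350095-133350168, SNORD36C at chr9:133350847-133350912 and SNORD15A at chr11:75400391-75400538. The capitals of SNORD36B and SNORD36C are identical at 9 of 11 bases. In all 3 guides the base opposite the fifth base before the box is A. The 28S sequence itself was not used here.

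Most of the 19 positions were highly methylated. Averaged over the 5 libraries, 7 had a level of at least 0.9, 11 a level between 0.5 and 0.9, and 1 a level below 0.5. Of all 110 positions, 48 had a mean of at least 0.9 and 6 a mean below 0.5, so high levels were not particular to this stretch. The highest mean levels were at 3825 (0.957), at 3760 in H69 (0.943) and at 3792 (0.933). Position 3825 was at 0.962 in ADAR1 #1, 0.955 in ADAR1 #2, 0.955 in ADAR2 #1, 0.961 for Mock and 0.952 for SCR, so the libraries barely separated there. The lowest mean levels were at 3867 (0.470), 3744 (0.759) and 3785 (0.759). Position 3867 stood far below the other 18, although position 3869, only 2 nucleotides away, had a mean level of 0.847. No value among these positions was exactly 0.

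**Figure D1:**
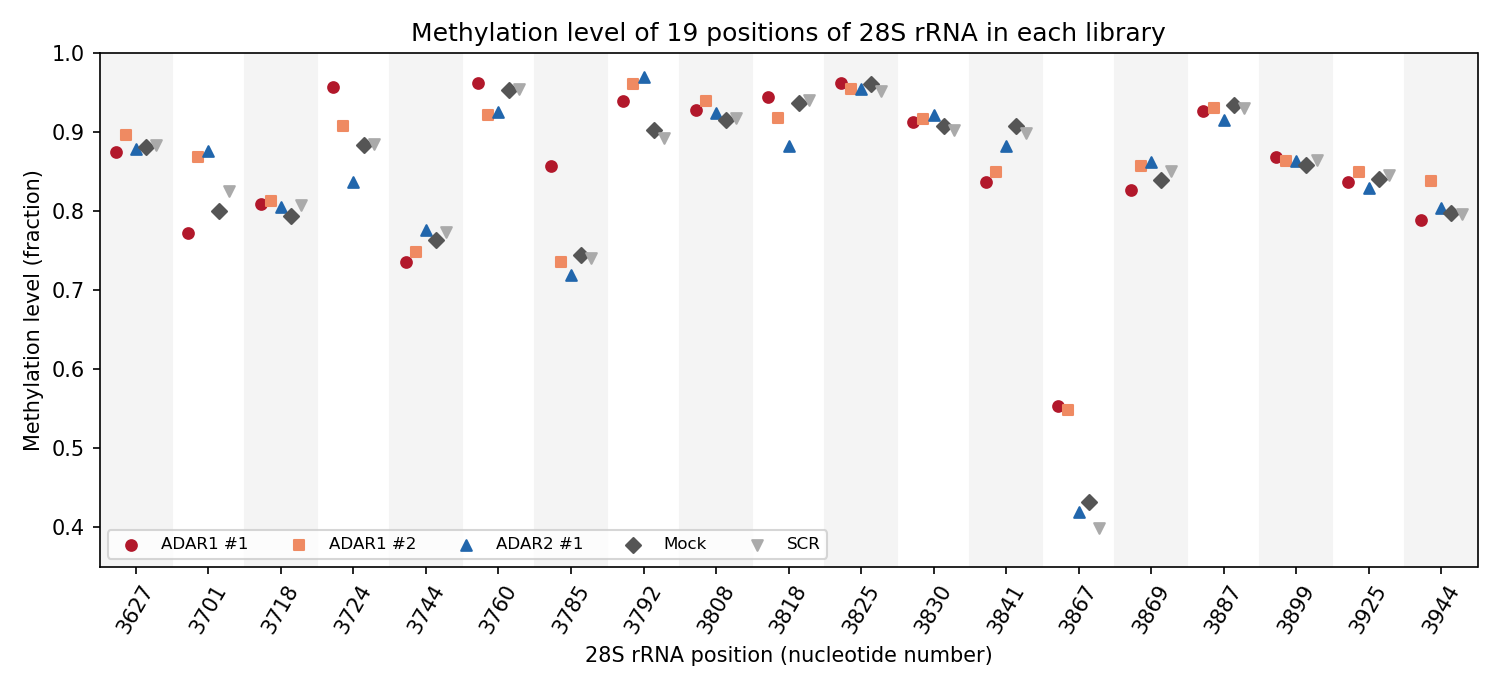
Methylation level (fraction, from 0 to 1, axis cut below 0.35) of each of the 19 positions in 28S order, with 1 point per library for ADAR1 #1, ADAR1 #2, ADAR2 #1, Mock and SCR. At 3867 the 2 ADAR1 points lie at 0.554 and 0.549, apart from the other libraries, and at 3785 ADAR1 #1 stands alone at 0.857.

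Mock and SCR gave close values at every one of the 19 positions. Their median absolute difference was 0.00520, and SCR was above Mock at 11 positions. The largest differences were at 3867 (0.432 for Mock and 0.399 for SCR), at 3701 (0.800 and 0.826) and at 3718 (0.794 and 0.807). Position 3718 varied little in the other libraries too, at 0.809 for ADAR1 #1, 0.813 for ADAR1 #2 and 0.805 for ADAR2 #1.

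The first comparison asked whether these positions were methylated differently in the ADAR1 libraries. None of the 19 passed the test. The difference was largest in size at 3867, the least methylated of them, while the lowest adjusted p was shared by 3792 and 3841. It had a level of 0.554 in ADAR1 #1 and 0.549 in ADAR1 #2, against 0.432 for Mock and 0.399 for SCR. Both ADAR1 libraries thus lay above both others, and they differed from each other by only 0.0048. The difference of the means was 0.136 (95% interval 0.0387 to 0.233, limma adjusted p = 0.182). At the neighbouring position 3869 ADAR1 #1 was at 0.826 and ADAR1 #2 at 0.857, against 0.840 for Mock and 0.851 for SCR. The ADAR1 libraries therefore lay on either side of Mock and SCR at 3869, with no separation like that at 3867.

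Position 3792 was also higher in both ADAR1 libraries, with 0.939 in ADAR1 #1 and 0.961 in ADAR1 #2, against 0.902 for Mock and 0.893 for SCR. The difference was 0.0529 (95% interval 0.0302 to 0.0755, limma adjusted p = 0.124). Position 3841, a target of SNORD74, was lower, with 0.837 and 0.849 in the ADAR1 libraries, against 0.907 for Mock and 0.898 for SCR. Here the groups did not overlap, and the difference was -0.0596 (95% interval -0.0901 to -0.0291, limma adjusted p = 0.124). Position 3724, whose SNORD36 guides are shown above, was at 0.957 in ADAR1 #1 and 0.907 in ADAR1 #2, against 0.884 for Mock and 0.886 for SCR. Its difference of 0.0472 (95% interval 0.0021 to 0.0923, limma adjusted p = 0.251) came mainly from ADAR1 #1 and was 0.0223 without that library and 0.0722 without ADAR1 #2.

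In limma, fitted to all 110 positions with Benjamini-Hochberg adjustment over them, 0 of the 19 passed an adjusted p of 0.05, beside 0% of all 110. At an unadjusted p below 0.05 there were 4 of the 19, beside 19.1% of all 110 positions. Of these 3 were higher (3724, 3792 and 3867), beside 15.5% of all 110, and 1 was lower (3841), beside 3.64%. By a rule of size, both ADAR1 libraries outside Mock and SCR on the same side and a difference of means of at least 0.05, 3 of the 19 counted (3792, 3841 and 3867), beside 10.9% of all 110. Without SCR, 3792 fell short of that size and 2 of the 19 counted, with no count made over all 110. At any size the ADAR1 libraries did not overlap Mock and SCR at 8 of the 19 positions, beside 50% of all 110. They were higher at 6, beside 35.5% of all 110, and lower at 2, beside 14.5%. Read against these shares, the counts for the 19 positions are near the background. Fits that kept only 1 ADAR1 library, and so took their spread from Mock and SCR alone, passed 9 of the 19 without ADAR1 #1, beside 50% of all 110, and 6 without ADAR1 #2, beside 25.5%. The median difference was 0.0041 over the 19 and 0.0078 over all 110 positions. The 95% intervals reached from 0.0120 to 0.104 on either side of the difference, with a median of 0.0335.

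**Figure D2:**
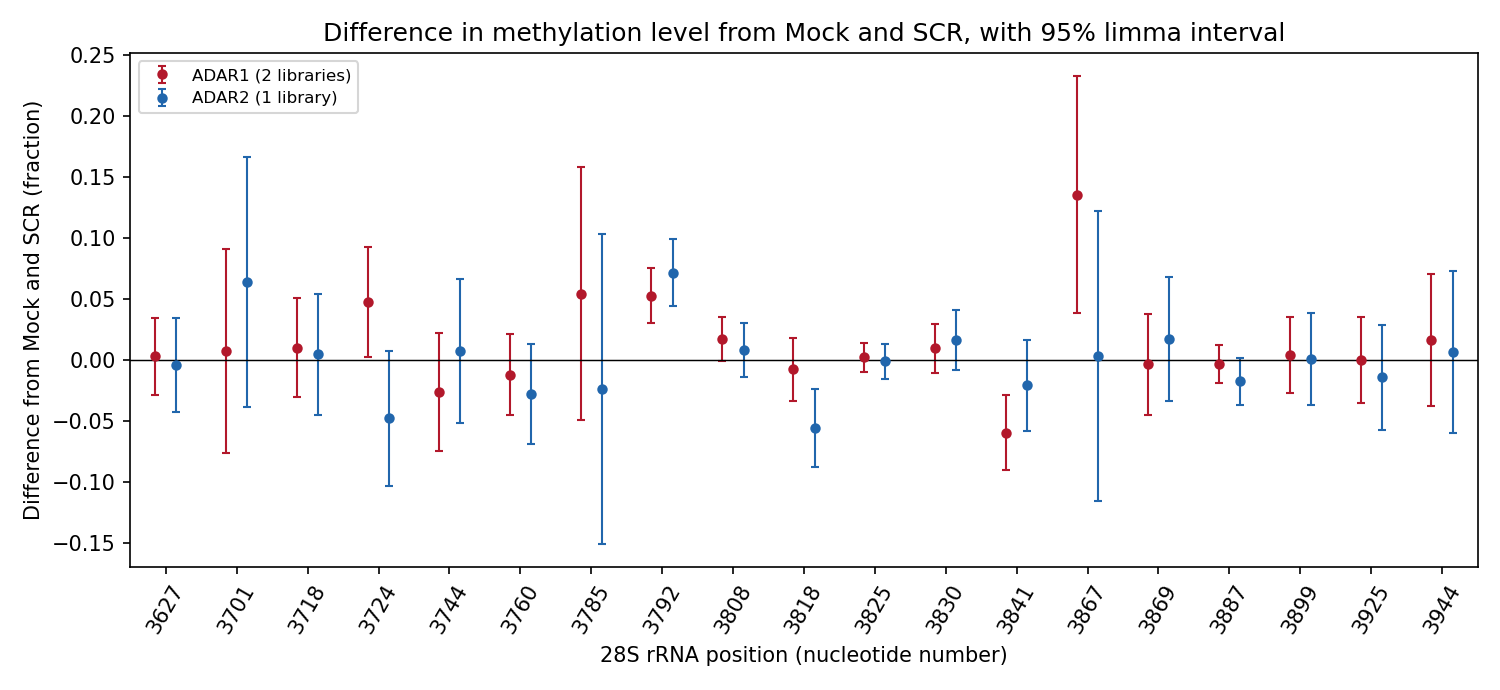
Difference in methylation level (fraction) from the mean of Mock and SCR at the 19 positions, for ADAR1 (mean of 2 libraries) and ADAR2 (1 library), with the 95% limma interval as bars and a line at 0. ADAR1 is highest at 3867 (0.136), where ADAR2 is at 0.0034, and both are above 0 at 3792.

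The 2 ADAR1 libraries often differed from each other. They lay on opposite sides of the mean of Mock and SCR at 9 of the 19 positions. No such count was made over the other 91 positions, so it cannot show whether this stretch is unusual. They differed most at 3785, the SNORD15 target, with 0.857 in ADAR1 #1 and 0.736 in ADAR1 #2, against 0.744 for Mock and 0.741 for SCR. ADAR1 #1 stood alone there, and ADAR1 #2 was close to Mock and SCR. The next was 3701, a target of SNORD88, with 0.772 in ADAR1 #1 and 0.868 in ADAR1 #2, against 0.800 and 0.826 in Mock and SCR. At this position the ADAR1 libraries lay on either side of both others, and their mean differed from that of Mock and SCR by only 0.0072. Position 3760 in H69 was at 0.962 in ADAR1 #1 and 0.921 in ADAR1 #2, against 0.953 for Mock and 0.954 for SCR. The SNORD111 target 3944 was at 0.789 and 0.838 in the same 2 libraries, against 0.798 for Mock and 0.797 for SCR, so at both 3760 and 3944 ADAR1 #2 was the one farther from Mock and SCR. ADAR2 #1 was at 0.926 at 3760 and at 0.719 at 3785, below Mock and SCR at both. Over the 19 positions the root mean square difference between the ADAR1 libraries was 0.0422, compared with 0.0115 between Mock and SCR. This measure gives most weight to large differences, such as those at 3785 and 3701. The median absolute differences of the same pairs were 0.0138 and 0.0052. By root mean square ADAR1 #2 lay closer to ADAR2 #1 (0.0382) than to ADAR1 #1. The median absolute difference gave the opposite order, with 0.0162 to ADAR2 #1 and 0.0138 to ADAR1 #1. By root mean square ADAR2 #1 was itself nearer to Mock (0.0319) and SCR (0.0301) than to ADAR1 #2. Over the other 91 positions the root mean square was 0.0624 for the ADAR1 pair, 0.0163 for Mock with SCR, and 0.0235 for ADAR1 #2 with ADAR2 #1.

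**Figure D3:**
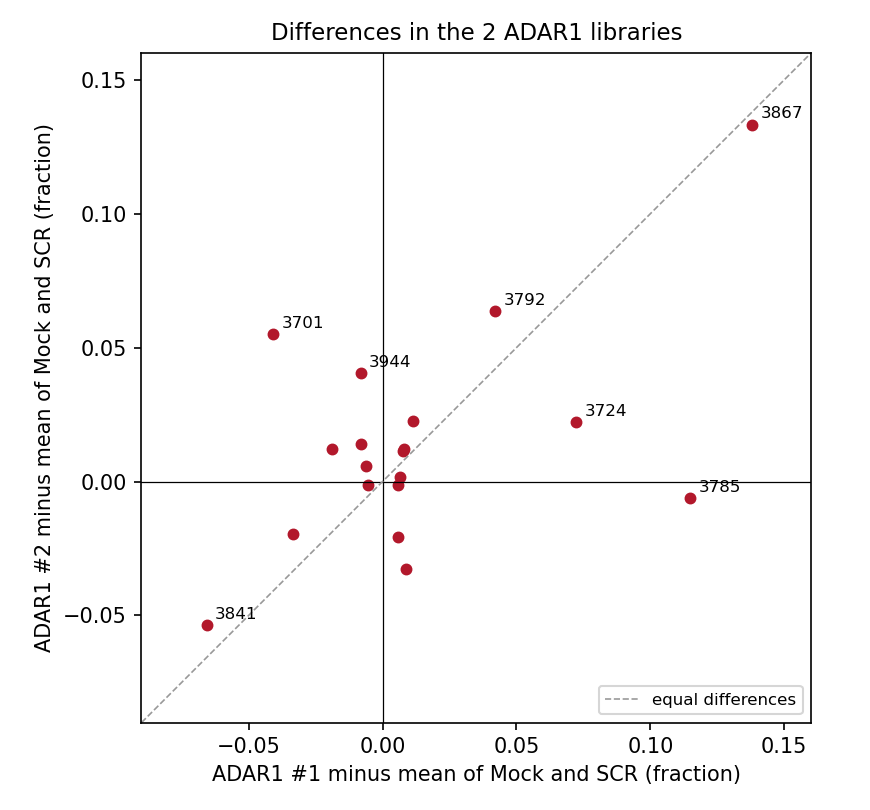
Difference in methylation level (fraction) from the mean of Mock and SCR in ADAR1 #1 (horizontal) and ADAR1 #2 (vertical), 1 point per position, with a dashed line where both are equal. Position 3867 lies near that line at 0.138 and 0.133, 3841 near it at -0.0657 and -0.0535, and 3785 far from it at 0.115 and -0.0063.

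The second comparison set the single ADAR2 library against Mock and SCR, the same libraries that the ADAR1 comparison used. None of the 19 passed. The highest relative level was at 3792, with 0.969 in ADAR2 #1, against 0.902 for Mock and 0.893 for SCR. The difference was 0.0717 (95% interval 0.0439 to 0.0994, limma adjusted p = 0.106). Position 3701 was at 0.877 in ADAR2 #1, against 0.800 for Mock and 0.826 for SCR, a difference of 0.0637 (95% interval -0.0388 to 0.166, limma adjusted p = 0.515). The ADAR1 libraries, which enter the estimate of spread, lay far apart at 3701. The lowest relative level was at 3818, with 0.883 in ADAR2 #1, against 0.936 for Mock and 0.941 for SCR. The difference was -0.0557 (95% interval -0.0875 to -0.0239, limma adjusted p = 0.213), while ADAR1 #1 was at 0.944 and ADAR1 #2 at 0.918. At 3867 ADAR2 #1 was at 0.419, between Mock and SCR.

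Of the 19 positions, 0 passed an adjusted p of 0.05 in limma, beside 0% of all 110. There were 2 at an unadjusted p below 0.05, beside 12.7% of all 110. These were 3792, higher, beside 7.27% of all 110 higher, and 3818, lower, beside 5.45% lower. The rule of size counted 3 of the 19 (3701, 3792 and 3818), beside 17.3% of all 110. At any size ADAR2 #1 was outside Mock and SCR at 15 of the 19, beside 82.7% of all 110, again near the background. It was higher at 7, beside 51.8% of all 110, and lower at 8, beside 30.9%. The median difference was 0.0010 over the 19 and 0.0053 over all 110 positions. With 1 ADAR2 library, the fit assumes that it varies as the other groups do. In fits whose spread came from Mock and SCR, 6 of the 19 passed without ADAR1 #1, beside 32.7% of all 110, and 6 without ADAR1 #2, beside 34.5%.

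The third comparison set ADAR1 directly against ADAR2. None of the 19 passed, beside 0% of all 110, with a lowest limma adjusted p of 0.528, and 4 had an unadjusted p below 0.05, beside 8.18% of all 110 positions. Of these, 3 were higher in ADAR1, beside 6.36% of all 110, and 1 was lower, beside 1.82%. Position 3867 differed by 0.132 (95% interval 0.0135 to 0.251), with 0.554 and 0.549 in the ADAR1 libraries, against 0.419 in ADAR2 #1. Position 3724 differed by 0.0949 (95% interval 0.0397 to 0.150), with 0.957 and 0.907, against 0.837 in ADAR2 #1. At 3724 both ADAR1 libraries were above Mock and SCR and the ADAR2 library was below them. Position 3818 differed by 0.0482 (95% interval 0.0164 to 0.0800), and 3841 was lower in ADAR1, by -0.0389 (95% interval -0.0762 to -0.0015). At 3841 ADAR2 #1 was at 0.882, also below Mock and SCR. The SNORD87 target 3744 was at 0.735 in ADAR1 #1 and 0.749 in ADAR1 #2, against 0.776 in ADAR2 #1, and it was at 0.763 for Mock and 0.774 for SCR. In fits whose spread came from Mock and SCR, 4 of the 19 passed without ADAR1 #1, beside 11.8% of all 110, and 9 without ADAR1 #2, beside 38.2%.

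The mean level over the 19 positions was 0.857 in ADAR1 #1, 0.859 in ADAR1 #2, 0.845 in ADAR2 #1, 0.845 for Mock and 0.845 for SCR. The ADAR1 mean was 0.0130 above that of Mock and SCR, and both ADAR1 libraries were above the other 3. The median level over the same 19 positions ran the other way, with 0.868 in ADAR1 #1, 0.868 in ADAR1 #2, 0.877 in ADAR2 #1, 0.882 for Mock and 0.884 for SCR. Over the other 91 positions the means were 0.821 in ADAR1 #1, 0.838 in ADAR1 #2, 0.832 in ADAR2 #1, 0.818 for Mock and 0.824 for SCR. Position 3867 supplied more of the difference in the mean over the 19 than any other: without it the means were 0.874, 0.876, 0.868, 0.868 and 0.870 in the same order of libraries, and the ADAR1 difference was 0.0062. With 2 libraries against 2, an exact permutation test was not run because the smallest p it allows is 1 in 3.

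The 8 positions not named by the rules on differences, levels or spread had ranges under 0.05 over the 5 libraries. These were from 0.0096, at 3899, to 0.0488, at 3944. Position 3899 was at 0.868 in ADAR1 #1, 0.864 in ADAR1 #2, 0.863 in ADAR2 #1, 0.859 for Mock and 0.865 for SCR. The SNORD52 target 3925 was between 0.829 and 0.849, and the SNORD79 target 3830 between 0.902 and 0.921. Position 3627, the first of the 19, was between 0.875 and 0.896, and 3808 between 0.916 and 0.939. Position 3869 was between 0.826 and 0.863, and 3887 between 0.915 and 0.935. In all, 12 of the 19 positions had a range under 0.05, compared with 63 of the other 91. There were 6 positions with another listed position within 6 nucleotides, in the pairs 3718 and 3724, 3825 and 3830, and 3867 and 3869. The ranges over the libraries were 0.0186 and 0.120 in the first pair, 0.0102 and 0.0193 in the second, and 0.154 and 0.0363 in the third, so close neighbours did not vary to the same extent in the first and the third.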

How the data were processed

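RiboMethSeq levels were taken from 1 table of 110 positions and 5 libraries. The authors deposited each level as a fraction between 0 and 1. The submitters' processing notes list SAMtools 1.15.1, Bowtie2 2.3.5.1, FastQC 0.11.9 and Trimmomatic 0.39, without settings. Neither the rRNA reference nor the formula of the level is stated there. A level of this kind depends on the flanking positions it is scored against. Levels were used as deposited.

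A limma 3.58.1 model (R 4.3.3) took in all 110 positions with 3 groups (ADAR1, ADAR2, and Mock with SCR), 2 residual degrees of freedom and an eBayes trend, whose prior was worth 3.41 degrees of freedom. P-values are two-sided and were Benjamini-Hochberg adjusted across the 110 positions. The fit was tested on simulated data. Values in every library are given for positions with an unadjusted p below 0.05, those of the rule of size, and the 3 with the lowest and highest mean, the largest Mock to SCR difference and the largest difference between ADAR1 libraries. Positions 3869, 3899 and 3944 were added after their values were seen. The positions and rules were chosen with earlier results of these data known. Alternatives were logit levels (bounded at 0.01 and 0.99), no trend, only positions averaging at least 0.5, median-centred libraries and other thresholds. Each library except ADAR2 #1 was also left out in turn. Guide sequences came from GENCODE 29 (GRCh38). Figures used matplotlib 3.10.9.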

Additional observations from a re-analysis of the deposited data

Results flagged for a closer look

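At 3724 and 3744 both ADAR1 libraries lay on one side of Mock and SCR and ADAR2 #1 on the other. This pattern was looked for only among the positions of this stretch. Its share over all listed positions was not counted, so whether it is unusual here is not known. ADAR1 minus ADAR2 was 0.0949 at 3724 (limma adjusted p = 0.528) and -0.0338 at 3744 (limma adjusted p = 0.724), so neither difference passed its test. At 3744 ADAR2 #1 exceeded SCR by less than Mock and SCR differed from each other.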

How the results depend on the processing

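The counts of 0 past the threshold stayed 0 on the logit scale, without a variance trend, among positions with a mean of at least 0.5 (which drops 3867), with median-centred libraries and at an adjusted p of 0.1. With 1 library left out they ranged from 0 to 9 for ADAR1, 0 to 6 for ADAR2 and 0 to 9 for ADAR1 against ADAR2. Without ADAR1 #1 they were 9, 6 and 4, beside 50%, 32.7% and 11.8% of all 110 positions, and without ADAR1 #2 they were 6, 6 and 9, beside 25.5%, 34.5% and 38.2%. Those fits take the spread from Mock and SCR alone and compare a single ADAR1 library. Their prior had infinite degrees of freedom, so a common trend was taken as exact and the spread at each position carried no weight. Their calls are therefore not positions shown to differ. The rule of size gave 5 positions for ADAR1 and 7 for ADAR2 at a limit of 0.02, beside 29.1% and 38.2% of all 110. At 0.1 it gave 1 and 0, beside 2.73% and 3.64%. After median-centring it gave 2 for ADAR1 and 3 for ADAR2, with no count made over all 110. After median-centring, the mean difference over the positions was 0.0091 for ADAR1, -0.0016 for ADAR2 and 0.0107 for ADAR1 against ADAR2. Without 3867, an alternative chosen after seeing the data, it was 0.0062 for ADAR1 and 0.0070 for ADAR1 against ADAR2. No paired analysis was possible because ADAR1 and ADAR2 share only the number 1 and Mock and SCR carry none. Unknown depth limits how finely single levels can be read.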
